A study of Mus musculus with 15 samples.

Results

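The 10 genes described here supply the machinery and the building blocks of DNA replication. They are Mcm2, Mcm3, Mcm4, Mcm5, Mcm6 and Mcm7, which encode the subunits of the MCM2-7 helicase, Pcna, the sliding clamp gene, Tyms, the thymidylate synthase gene, and Rrm1 and Rrm2, the ribonucleotide reductase genes. They were chosen by symbol for what they encode, with earlier results of these data known. Each symbol stood for 1 row in each table: 10 of 51627 genes in embryonic stem cells (ESCs) and 10 of 53564 genes in 2-cell embryos. All 10 passed the filter on low values in both comparisons.

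Messenger RNA was measured in 15 mouse libraries. In J1 cells, an established mouse ESC line grown here without feeders, 2 libraries had the genotype label Zscan4 OE (overexpression) and 2 the label wild type. In 2-cell embryos, 6 libraries were labelled Zscan4 RNAi and 5 wild type. Zscan4 is a family of zinc finger genes transcribed at the 2-cell stage and in rare ESCs; the comparisons ask how the transcriptome differs when it is raised in ESCs or lowered in embryos. The labels give the passage of the J1 cells as PN+8 and do not say which promoter or vector drove Zscan4, which RNAi reagent was used, whether control embryos were injected, or which mouse strain gave the embryos. They name genomic DNA as the molecule and give the stem cell culture protocol for the embryos too, although the titles and the gene values are those of RNA-Seq. Whether replicate libraries are from different cultures or different embryo pools is not stated, and the p-values therefore reflect a spread among libraries that may be only technical.

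MCM2-7 is a ring of related ATPases that is loaded onto replication origins before S phase and, once joined by CDC45 and the GINS proteins, unwinds DNA ahead of the fork. PCNA encircles DNA and tethers the replicative polymerases. Ribonucleotide reductase turns ribonucleotides into deoxyribonucleotides through a large subunit, RRM1, and a small subunit, RRM2, and thymidylate synthase makes thymidylate from deoxyuridylate. In proliferating cells many of these genes are activated by E2F transcription factors. Oocytes store messages and proteins for the first cell divisions, and the mouse embryo begins its main wave of transcription at the 2-cell stage.

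The sequence around the start site was compared for E2F-type letters, because many of these genes are known E2F targets. RefSeq promoters (GRCm38.p6, the assembly of mm10, windows of equal length around each start site) were matched for 9 of the 10 genes, and Mcm4 was not matched. The letters TTTCGCGC or TTTGGCGC, on either strand and with overlaps allowed, stood in the promoters of Mcm3, Mcm5, Mcm6 and Mcm7, which is 4 of 9 genes, and in 0.813% of 32851 promoters. Another form, TTCCCGCC, stood in those of Mcm3 and Rrm1 and in 2.19% of all promoters, and CCAAT stood in 8 of 9 genes and in 37.4% of all promoters. The E2F-type matches of Mcm3 and Mcm7 all lay downstream of the start site, and those of Mcm5, Mcm6 and Rrm1 upstream of it. The 160 bases upstream of 4 genes are shown, the 3 that were lower with RNAi (Mcm6, Rrm2 and Tyms) and Mcm5 for its overlapping E2F-type letters, chosen with their values known. Capitals mark these letters and CCAAT, read on either strand. They lie at chr1:128359706-128359865, minus strand (Mcm6), chr8:75109349-75109508, plus strand (Mcm5), chr12:24708094-24708253, plus strand (Rrm2) and chr5:30073626-30073785, minus strand (Tyms).
Mcm6: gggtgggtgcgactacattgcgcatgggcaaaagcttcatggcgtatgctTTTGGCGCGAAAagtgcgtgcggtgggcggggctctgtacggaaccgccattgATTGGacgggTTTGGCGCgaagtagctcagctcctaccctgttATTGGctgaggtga
Mcm5: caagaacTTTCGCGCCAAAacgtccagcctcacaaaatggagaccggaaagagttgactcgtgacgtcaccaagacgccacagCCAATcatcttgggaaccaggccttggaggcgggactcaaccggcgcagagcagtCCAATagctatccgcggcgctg
Rrm2: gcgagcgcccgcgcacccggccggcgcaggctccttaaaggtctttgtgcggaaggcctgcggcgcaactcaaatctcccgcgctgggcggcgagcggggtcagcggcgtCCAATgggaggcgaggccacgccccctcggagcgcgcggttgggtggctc
Tyms: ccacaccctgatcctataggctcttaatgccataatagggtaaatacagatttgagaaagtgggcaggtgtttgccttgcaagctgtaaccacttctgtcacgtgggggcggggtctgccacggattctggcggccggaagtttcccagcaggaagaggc
Mcm6 held 3 E2F-type matches in this window, 2 of them overlapping, and Mcm5 held 2 that overlap. The Tyms window held none of the letters searched, and Rrm2 held a CCAAT alone. A match describes the letters and not a bound site.

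Depth was 21820093 to 26555027 reads assigned to genes in the ESC libraries and 695524 to 1432566 in the embryo libraries. Values are reads divided by a size factor per library, called normalised reads; 1 read was worth 0.912 to 1.19 of them in ESCs and 0.687 to 1.39 in embryos. The summed Zscan4 genes stood at 20005 and 19449 in OE cells, against 152 and 212 in control cells. In embryos they stood at 13.9 to 383 with RNAi (median 218), against 345 to 1064 in the controls, so the embryo groups overlapped. ESC markers (12 of 12 measured) were present in every J1 library, and oocyte-stored and zygotic 2-cell markers in every embryo library. Of the cumulus and granulosa markers, Has2, Inha, Amh and Inhba had no read in any embryo library, and of the fibroblast markers Col3a1 had none. The summed cumulus and granulosa list (12 genes) stood at 17.4 to 65.6 normalised reads with RNAi, against 90.6 to 141 in control embryos, and the fibroblast list (12 genes) at 18.9 to 55.7, against 13.9 to 40.1. In each embryo library 6 to 8 of the cumulus and granulosa genes had no read. That list summed to 2761 and 2766 in control J1 cells, so its sum is not particular to cumulus or granulosa cells. Values are from whole embryos or bulk cells, in which fewer cells of a type and less RNA per cell cannot be told apart.

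In 2-cell embryos, RNAi libraries held less RNA for thymidylate synthase, the small reductase subunit and Mcm6. Tyms was 13.6-fold lower, Rrm2 2.19-fold lower and Mcm6 2.22-fold lower than in control embryos. Of the 10 genes, 3 were lower and 0 higher at an adjusted p under 0.05 in limma, whereas 12.0% of the 16417 genes tested were lower and 6.13% higher. The groups did not overlap for 1 of the 10 (Tyms, lower) and for 4.28% of all genes with lower and 3.05% with higher values. All 10 log2 fold changes were below 0, against 50.9% of all genes, but those of Mcm2, Mcm5 and Pcna changed sign under other scalings or with a library left out. By the ratio of group means Mcm2 was not lower with RNAi (1.02). The median log2 fold change of the 10 was -0.97 and that of all genes -0.03. At an unadjusted p under 0.05 there were 5 of 10, with Rrm1 and Mcm3 added, against 33.1% of all genes. Without RNAi 5 the test called 5 of 10, with Rrm1 and Mcm3 added, and 19.1% of all genes. Without control 2 it called 1, Tyms, and 10.5% of all genes.

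**Figure D1:**
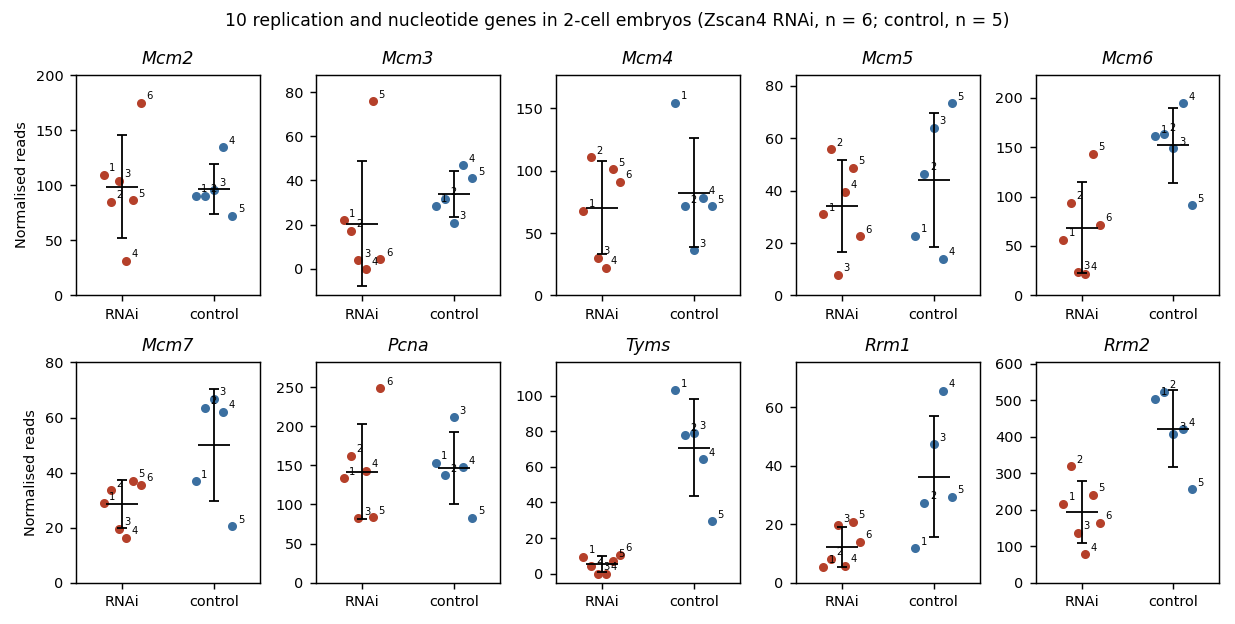
Normalised reads (vertical axis, linear) of the 10 genes in 2-cell embryo libraries, with Zscan4 RNAi (6 libraries) left of control (5 libraries). Points are libraries numbered as in their columns, and bars are the mean ± SD, which for Mcm3 reaches below 0. The 6 RNAi libraries of Tyms lie between 0 and 10.4, all under the lowest control at 29.3, whereas the groups overlap for the other 9 genes.

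Among the nucleotide synthesis genes, Tyms (chromosome 5, positions 30058202 to 30073617) moved most. It had 0 to 10.4 normalised reads with RNAi (median 5.66), against 103, 78.2, 79.3, 64.4 and 29.3 in controls 1 to 5. The groups did not overlap, and control 5 was the lowest control. RNAi 3 and RNAi 4 had no Tyms read, where 3 reads would be 3.91 and 3.48 normalised reads. The means were 5.22 ± 4.60 with RNAi (SD, n = 6) and 70.9 ± 27.1 in controls (SD, n = 5), from 39 and 371 reads in all. The log2 fold change was -4.01 (SE 0.67, limma adjusted p = 0.00200), and 0.268% of the genes tested had a lower one. The call held in all 19 alternatives, with adjusted p between 1.56e-07 and 0.0109.

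The ribonucleotide reductase genes were the next lowest of the nucleotide group. Rrm2 (chromosome 12, positions 24708241 to 24714146) had 77.8 to 319 normalised reads with RNAi (median 191), against 504, 522, 408, 420.3 and 256 in controls 1 to 5. RNAi 2 lay above control 5, and the other 5 RNAi libraries lay below every control. Its log2 fold change was -1.22 (SE 0.33, adjusted p = 0.0177), and the adjusted p was 0.0526 without control 2 and 0.0535 in edgeR. Rrm1 (chromosome 7, positions 102441695 to 102469771) averaged 12.3 ± 6.81 with RNAi and 36.2 ± 20.7 in controls, from 5 to 23 reads per RNAi library and 14 to 56 per control. Its log2 fold change of -1.45 (SE 0.51) missed the threshold (limma adjusted p = 0.0543), which it passed without RNAi 5 (0.0401), without control 1 (0.0315), in DESeq2 (0.0181), with a pseudocount of 5 (0.0454) and with a filter at 10 normalised reads (0.0393). Both subunit genes had lower means with RNAi, and Rrm2 passed the test.

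Of the helicase genes, Mcm6 (chromosome 1, positions 128331590 to 128359664) was lower with RNAi. It had 22.1 to 143 normalised reads with RNAi (median 63.7), against 161, 163, 149, 194 and 90.9 in controls 1 to 5. Of the RNAi libraries, 4 lay below control 5, and RNAi 2 and RNAi 5 lay between it and the other controls. The log2 fold change was -1.40 (SE 0.43, limma adjusted p = 0.0297). The call ended in 9 of 19 alternatives: without RNAi 3 (0.0682) or RNAi 4 (0.0619), without control 1 (0.0619), 2 (0.0688), 3 (0.0617) or 4 (0.0787), after quantile normalisation (0.0530), in DESeq2 (0.0525) and in edgeR (0.109).

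The other helicase subunits did not pass the test. Mcm3 had 0 to 75.7 normalised reads with RNAi (median 10.8), against 28.5, 31.7, 20.9, 46.8 and 41.1 in the controls. Its 95% interval of the log2 fold change ran between -3.40 and -0.17 (adjusted p = 0.112), and without RNAi 5, the highest library of all, the adjusted p was 0.0230 and the log2 fold change -2.38, beside -1.79 with it. The log2 fold change was -0.60 in edgeR (adjusted p = 0.609), -0.71 in DESeq2 (0.530), -1.11 in voom (0.242), -1.19 with a pseudocount of 5 (0.114) and -1.13 without RNAi 4 (0.228). Mcm7 averaged 28.5 ± 8.70 with RNAi and 49.9 ± 20.3 in controls, with a log2 fold change of -0.73 (95% interval -1.57 to 0.11, adjusted p = 0.215). Control 5 had 20.5 normalised reads of Mcm7, less than 4 of the 6 RNAi libraries.

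Mcm2, Mcm4 and Mcm5 had means close to those of controls. Mcm2 averaged 98.8 ± 46.7 normalised reads with RNAi and 96.9 ± 22.9 in controls, Mcm4 70.5 ± 37.3 with RNAi and 82.4 ± 43.5 in controls, and Mcm5 34.2 ± 17.6 with RNAi and 44.1 ± 25.6 in controls. Their log2 fold changes lay between -0.34 and -0.10. The 95% intervals of the fold were 0.545 to 1.59 for Mcm2, 0.425 to 1.55 for Mcm4 and 0.376 to 1.66 for Mcm5, which leave changes within these bounds in either direction possible. Within the RNAi group Mcm2 ranged between 31.3 in RNAi 4 and 175 in RNAi 6.

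Pcna (chromosome 2, positions 132249162 to 132253314), the clamp gene, did not pass the test. It had 82.1 to 248 normalised reads with RNAi (median 138), against 153, 137, 212, 148 and 83.1 in the controls. The log2 fold change was -0.09 (95% interval -0.79 to 0.61, adjusted p = 0.881). Its processed pseudogene Pcna-ps2 shares most of the windows of 50 bases that Pcna has in common with other genes, 19.1% of its own windows. Pcna-ps2 itself averaged 36.1 ± 14.4 with RNAi and 46.0 ± 18.7 in controls, so part of the Pcna signal is uncertain.

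**Figure D2:**
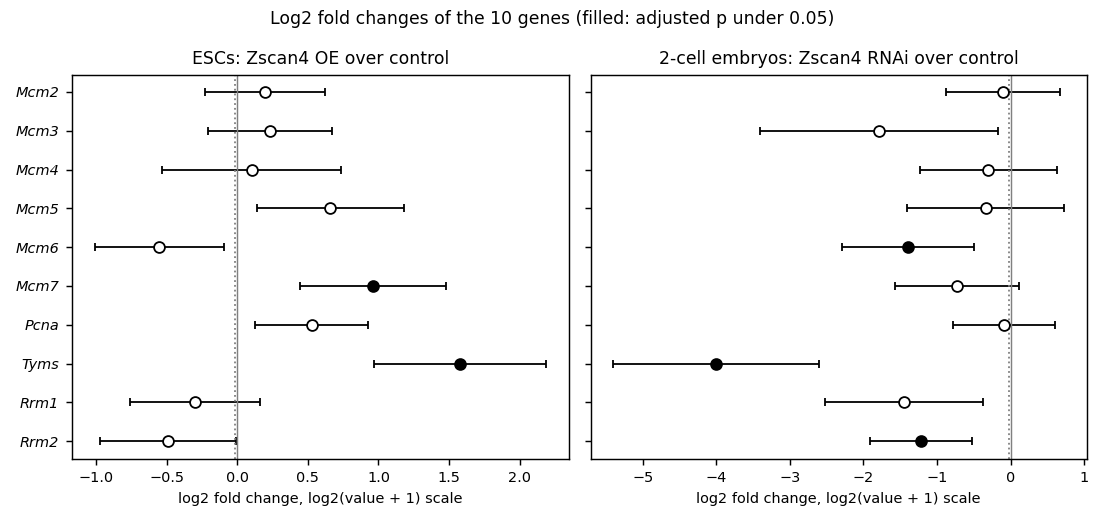
Log2 fold changes (horizontal axis, log2(value + 1) scale) of the 10 genes with 95% intervals from limma, in ESCs (Zscan4 OE over control) and 2-cell embryos (Zscan4 RNAi over control). Filled points have an adjusted p under 0.05, and the dotted line is the median of all tested genes. Tyms is at 1.58 in ESCs and at -4.01 in embryos.

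The RNAi libraries differed among themselves in these genes. In RNAi 3 and RNAi 4, 8 of the 10 genes lay below the lowest control in each. RNAi 1 and RNAi 6 each had 4 genes below that level, RNAi 2 had 3 and RNAi 5 had 2. RNAi 5 had 1 gene (Mcm3) and RNAi 6 had 2 (Mcm2 and Pcna) above the highest control. The matching shares over all tested genes were not counted, so whether these counts are particular to the 10 genes was not tested. The members' mean centred log2 level was -1.26 in RNAi 3 and -1.68 in RNAi 4, -0.25 to 0.27 in the other RNAi libraries, and 0.26 in control 5 against 0.59 to 0.79 in the other controls. The summed Zscan4 genes stood at 379 normalised reads in RNAi 3 and 383 in RNAi 5, both above control 5 at 345. They stood at 13.9 in RNAi 4, the lowest of all embryo libraries.

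Other RNA classes differed too, and of these the ribosomal protein list was lowest in RNAi 3 and RNAi 4. A list of 30 cytosolic ribosomal protein genes summed to 542 and 679 normalised reads in RNAi 3 and RNAi 4, to 989 to 2425 in the other RNAi libraries, to 1927 in control 5 and to 4661 to 6460 in the other controls. Of those genes 23 were lower and 0 higher. Oocyte-stored genes (16) summed to 32594 to 49229 with RNAi, against 9805 to 15075 in the controls, with 6 higher and 0 lower. Zygotic 2-cell genes (16) summed to 765 to 1527 with RNAi, against 1464 to 2839 in the controls, with 6 lower and 1 higher. That list includes Zscan4c, Zscan4d and Zscan4f, of the family targeted by RNAi. Their part in the sum and in the calls was not separated. ESC marker genes (12) summed to 438 to 584 with RNAi, against 783 to 1267 in the controls, without overlap and with 2 lower and 0 higher. In RNAi 3 and RNAi 4 the oocyte-stored, zygotic and ESC marker sums lay within the range of the other RNAi libraries. RNAi 3 and RNAi 4 had 16287 and 16051 genes with a read, against 16472 to 18673 in controls. The part of these differences in the replication genes was not tested.

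The balance among the helicase messages also varied. Levels of different genes are given per length, as RPKM, which here means reads scaled to the principal transcript's length and to the library's assigned reads. Mcm6 made up 14.0% to 31.8% of the summed Mcm2 to Mcm7 level with RNAi (mean 21.8%), against 36.0%, 37.7%, 37.1%, 39.5% and 27.2% in controls 1 to 5. It was the most abundant subunit message in 2 of 6 RNAi libraries, and in 5 of 5 control libraries. Mcm2 made up 16.6% to 53.7% with RNAi (median 28.4%), against 17.5% to 23.6% in controls. These shares rest on 113 to 546 helicase reads per RNAi library and 311 to 633 per control library, and they were not tested because the genes were chosen with results known.

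**Figure D3:**
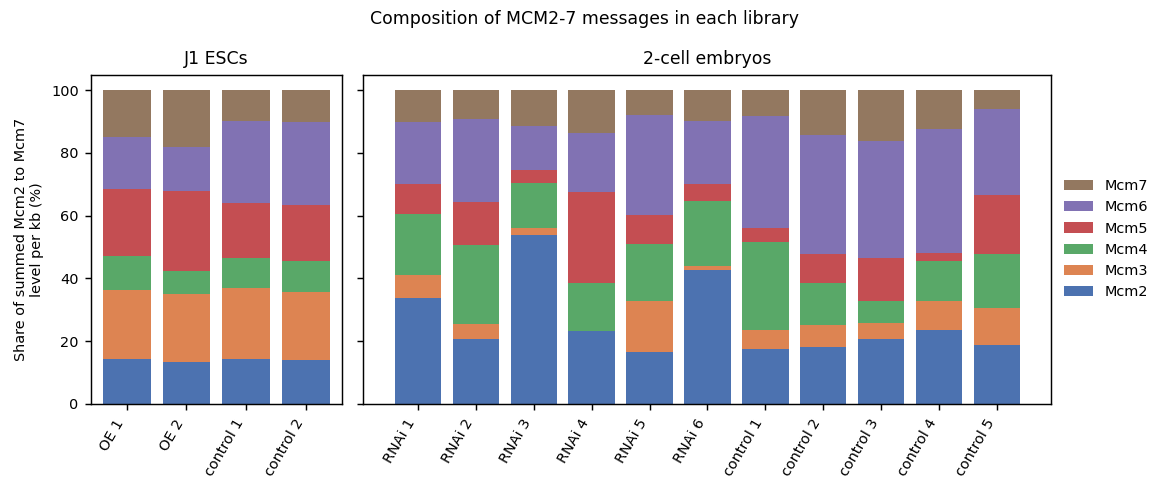
Share (vertical axis, %) of each of Mcm2 to Mcm7 in their summed level per kb, as stacked bars for each library, with OE left of control in ESCs and RNAi left of control in embryos. Mcm6 holds 14.0% to 31.8% with RNAi and 27.2% to 39.5% in control embryos, and in ESCs it holds 16.4% and 13.8% with OE against 25.9% and 26.5% in controls.

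Per length, Pcna (92.5 ± 39.6 RPKM) and Rrm2 (90.1 ± 45.2 RPKM) led with RNAi and lay within their spread of each other. Mcm2 followed at 29.4 RPKM, below Rrm2 by more than the larger SD. Next were Mcm6 at 24.7, Mcm4 at 20.3, Mcm5 at 10.3 and Mcm7 at 9.78 RPKM. Mcm3 at 7.47, Rrm1 at 3.11 and Tyms at 1.72 ± 1.49 RPKM came last. Each gene after Mcm2 lay within the larger SD of the gene above it. In control embryos Rrm2 led at 203 ± 41.8 RPKM, followed by Pcna at 102 ± 28.1, Mcm6 at 55.0 ± 11.4 and Mcm2 at 30.5 ± 6.28. From Mcm2 down, neighbours in the control order did not differ beyond the SD, with Mcm4 at 24.5, Tyms at 23.5, Mcm7 at 17.7, Mcm5 at 14.2, Mcm3 at 12.0 and Rrm1 at 9.64 RPKM. The 10 genes together took 0.0304% to 0.0978% of all assigned reads with RNAi, against 0.0928% to 0.133% in controls.

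Other genes of replication and nucleotide synthesis were counted from 5 lists with 96 tested genes, of which 22 (22.9%) were lower and 4 (4.17%) higher with RNAi. Over all genes the shares were 12.0% and 6.13%. Purine and pyrimidine synthesis had 7 of 17 lower and 0 higher, with a median log2 fold change of -1.13. Prps1, which makes the phosphoribosyl donor of nucleotide synthesis, averaged 268 ± 195 normalised reads with RNAi and 1962 ± 1029.5 in controls (log2 fold change -3.17, SE 0.55). Ppat, the first committed enzyme of purine synthesis, averaged 87.5 ± 71.9 with RNAi and 365 ± 120 in controls (-2.46, SE 0.53), and the guanylate enzyme gene Gmps 35.1 ± 27.5 with RNAi and 138 ± 56.8 in controls (-2.25, SE 0.50). Deoxynucleotide supply had 2 of 18 lower and 0 higher. They were Shmt1, a folate enzyme gene, at 44.3 ± 36.6 with RNAi against 172 ± 46.4 in controls, and Nme2, a nucleoside diphosphate kinase gene, at 59.2 ± 49.8 with RNAi against 263 ± 84.4 in controls. The median of that list was 0.35.

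Origin firing and fork genes had 5 of 17 lower and 0 higher (median -0.22). The GINS subunit genes Gins1 and Gins3 averaged 3.83 ± 3.06 and 10.3 ± 9.20 with RNAi, against 20.4 ± 8.12 and 41.9 ± 19.5 in controls, and Cdc45, the helicase partner, 72.5 ± 35.9 against 236 ± 119. Polymerase, clamp and strand maturation genes had 7 of 32 lower and 3 higher (median -0.38). The primase gene Prim1 averaged 11.9 ± 7.70 with RNAi against 71.3 ± 36.6 in controls, the flap endonuclease gene Fen1 9.26 ± 6.05 against 34.3 ± 12.6, and the clamp loader gene Chtf18 0.638 ± 0.905 against 9.08 ± 3.62. The Chtf18 mean with RNAi lay below the value of 3 reads, 2.06 to 3.91 normalised reads in those libraries. Origin licensing had Orc1, of the origin recognition complex, lower (29.2 ± 28.7 with RNAi against 72.6 ± 26.9 in controls) and Mcm9, a paralog with a role in repair, higher (257 ± 61.6 with RNAi against 135 ± 64.1 in controls), of 12 tested.

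Regulators and later cell cycle genes were listed for comparison. E2F and RB factors had 1 of 18 lower, Lin9 of the DREAM complex at 23.4 ± 13.8 with RNAi against 57.8 ± 22.7 in controls, and 0 higher. Mitosis genes had 6 of 22 lower and 3 higher, with the spindle midzone gene Prc1 at 117 ± 34.3 against 503 ± 199, Incenp at 17.7 ± 9.32 against 61.7 ± 19.1 and the kinase gene Aurka at 220 ± 56.6 against 473 ± 107. Orc1, Cdc45, Mcm9, Fen1, Chtf18, Shmt1, Nme2, Ppat and Prc1 share exon bases with another annotated gene, and their values are uncertain for that reason.

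The 5 genes outside the 10 whose profile over the 11 embryo libraries lay nearest to the mean profile of the 10, by the root mean square difference of centred log2 values among 9265 genes, were Ddx5 (0.27), Gm10052 (0.28), Kif1b (0.30), Utp15 (0.30) and Zfp830 (0.30). Of these Ddx5, an RNA helicase gene, averaged 258.5 ± 95.3 normalised reads with RNAi and 549 ± 104 in controls. Among the 10 themselves Rrm2 (0.29) and Mcm6 (0.31) lay nearest to their own mean and Tyms (1.61) farthest. These distances describe 11 libraries that share their group difference.

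In J1 ESCs, OE libraries held more RNA for thymidylate synthase and Mcm7. Tyms was 3.03-fold higher and Mcm7 1.96-fold higher than in control cells, and the other 8 genes did not pass the threshold. Of the 10 genes 2 were higher and 0 lower in limma, whereas 11.7% of the 20888 genes tested were higher and 11.4% lower. The groups did not overlap for 6 genes with higher values and 3 with lower values, against 34.2% and 34.6% of all genes. The log2 fold change was below 0 for 3 of 10 and for 50.7% of all genes. At an unadjusted p under 0.05 there were 6 of 10, against 41.4% of all genes. The median log2 fold change was 0.22 and that of all genes -0.02.

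These calls needed both controls. Leaving out control 1 or control 2 gave 0 of 20888 genes and 0 of the 10 in limma, with 3617 and 3646 genes, and 1 of the 10 (Tyms), at an unadjusted p under 0.05. With OE 1 or OE 2 left out 8 of the 10 were called, and so were 52.0% and 43.1% of all genes. In each such fit the lone library was assumed to vary like the other group. The OE libraries differed from each other in the summed ribosomal protein list (29 genes measured), at 662103 and 1151170 normalised reads, against 905222 and 888540 in control cells. Zygotic 2-cell genes summed to 17916 and 18754 in OE cells, against 136 and 163 in control cells. That list includes the overexpressed family itself (Zscan4c, Zscan4d and Zscan4f), whose part in the sum was not separated. Fibroblast genes (11 measured) summed to 46624 and 29196 in OE cells, against 33633 and 36679 in control cells, with Dcn, Postn and Lum at 0 in both controls. Of the 9 fibroblast genes tested, 3 were higher and 2 lower. The part of these differences in the replication genes was not tested. Under the 9 alternatives that keep all 4 libraries, 2 or 3 of the 10 were called, by edgeR and DESeq2 2 each.

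**Figure D4:**
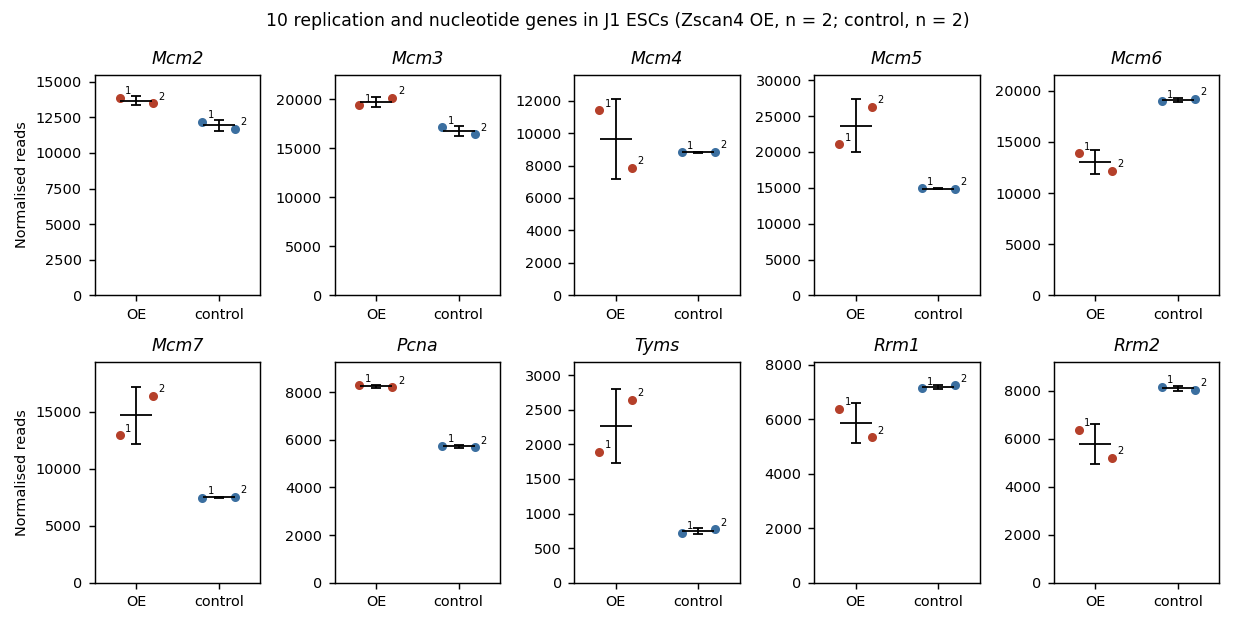
Normalised reads (vertical axis from 0, linear) of the 10 genes in J1 ESC libraries, with Zscan4 OE (2 libraries) left of control (2 libraries). Points are libraries and bars are the mean ± SD. Both OE libraries lie above both controls for Tyms (1891 and 2643 against 721 and 775) and below them for Mcm6, Rrm1 and Rrm2, and the groups overlap for Mcm4 alone.

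Among the nucleotide synthesis genes Tyms was higher, and the reductase genes had lower values that missed the threshold. Tyms had 1891 and 2643 normalised reads in OE cells, against 721 and 775 in control cells. Both OE libraries lay above both controls, and the log2 fold change was 1.58 (SE 0.23, limma adjusted p = 0.0209; 0.272 without control 1 and 0.262 without control 2). Rrm2 had 6389 and 5205 in OE cells, against 8182 and 8039 in control cells, with a log2 fold change of -0.49 (95% interval -0.98 to -0.01, adjusted p = 0.117). Rrm1 had 6367 and 5337 in OE cells, against 7122 and 7233 in control cells (-0.30, 95% interval -0.76 to 0.16, adjusted p = 0.260). Both OE libraries lay below both controls for each reductase gene. Per length, the ratio of Rrm2 to Rrm1 was 1.83 and 1.78 in OE cells and 2.09 and 2.03 in control cells.

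Of the helicase genes, Mcm7 (chromosome 5, positions 138164583 to 138172422) had 12926 and 16399.5 normalised reads in OE cells, against 7429 and 7526 in control cells. Its log2 fold change was 0.96 (SE 0.19, adjusted p = 0.0354; 0.363 without control 1 and 0.358 without control 2). Both OE libraries lay above both controls. Mcm5 (chromosome 8, positions 75109569 to 75128439) had 21066 and 26289 in OE cells against 14952 and 14857 in control cells, also without overlap, and its log2 fold change of 0.66 had an adjusted p of 0.0751; it was 0.0382 in voom with quality weights, 0.0442 after quantile normalisation, and 0.0112 and 0.0166 without OE 1 and OE 2. Mcm6 lay lower in both OE libraries, at 13893 and 12199.5 in OE cells against 18958 and 19195 in control cells (-0.55, adjusted p = 0.0829; 0.0112 without OE 1 and 0.0168 without OE 2).

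Mcm2, Mcm3 and Mcm4 had the smallest differences among the helicase genes. Mcm2 had 13885 and 13468 in OE cells against 12181 and 11676 in control cells, and Mcm3 19352 and 20096 in OE cells against 17140.0 and 16394 in control cells. Their log2 fold changes were 0.20 and 0.23, with 95% intervals of -0.23 to 0.62 and -0.20 to 0.67. Mcm4 had 11388 and 7873 in OE cells against 8801 and 8849 in control cells, so the OE libraries lay on either side of the controls. Its log2 fold change was 0.10, -0.16 without OE 1 (adjusted p = 0.0249) and 0.37 without OE 2 (adjusted p = 0.0170). Pcna had 8284 and 8201 in OE cells against 5752 and 5691 in control cells, a log2 fold change of 0.53 (adjusted p = 0.0705; 0.0114 without OE 1 and 0.0166 without OE 2), while Pcna-ps2 averaged 2571 ± 1077 in OE cells and 1328 ± 39.2 in control cells.

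The order of the helicase messages is given for both ESC groups. Per length, Mcm5 (278 ± 29.4 RPKM) and Mcm3 (259 ± 6.26 RPKM) led in OE cells and lay within their spread of each other. Pcna, Mcm7, Mcm6 and Mcm2 followed between 217 and 162 RPKM, and neighbours among them lay within their spread. Pcna lay below Mcm3 by more than the larger SD. Tyms was the lowest, at 28.4 ± 5.25 RPKM. In control cells Mcm6 led at 267 ± 3.14 RPKM, followed by Mcm3 at 225 ± 6.42, Mcm5 at 180 ± 0.270 and Pcna at 154 ± 0.697, and Tyms was lowest at 9.64 ± 0.522 RPKM, with every gap between neighbours larger than the SD. The Mcm6 share of the summed helicase level was 16.4% and 13.8% in OE cells against 25.9% and 26.5% in control cells, and the Mcm7 share 15.0% and 18.3% against 9.97% and 10.2%. The 10 genes took 0.477% and 0.453% of all assigned reads in OE cells and 0.412% and 0.409% in control cells; the embryo table was normalised separately and its libraries were shallower, so these shares are set beside the embryo shares only as a description.

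Of the 95 tested genes of the same 5 lists, 8 (8.42%) were higher and 6 (6.32%) lower in OE cells, beside 11.7% and 11.4% of all genes. Origin licensing had 0 of 12 called, and its smallest p was that of Orc5 (2542 ± 98.0 in OE cells against 1663 ± 50.5 in control cells, adjusted p = 0.0543). Origin firing and fork genes had 3 of 16 higher and 1 lower. The initiation factor genes Ticrr and Recql4 averaged 3853 ± 630 and 1426 ± 33.0 in OE cells against 1794 ± 52.2 and 784 ± 7.56 in control cells, and the origin-firing kinase gene Cdc7 fell to 841 ± 312 in OE cells, against 2789 ± 64.7 in control cells. Polymerase, clamp and strand maturation genes had 4 of 31 higher and 3 lower, with Fen1 at 3321 ± 179 in OE cells against 1286 ± 7.68 in control cells, Chtf18 at 3579 ± 925 against 1066 ± 85.8 and the topoisomerase gene Top2a at 11867 ± 3525 against 40396 ± 547.

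Deoxynucleotide supply had 1 of 18 lower and 0 higher. It was Rrm2b, which encodes the p53-inducible small reductase subunit, at 101 ± 34.4 in OE cells against 413 ± 17.7 in control cells. Purine and pyrimidine synthesis had Atic, a late enzyme of purine synthesis, higher (12142 ± 518 in OE cells against 7157 ± 72.3 in control cells) and Adssl1, an adenylosuccinate synthase gene, lower (79.1 ± 6.15 in OE cells against 712 ± 23.4 in control cells) of 18. E2F and RB factors had 2 of 18 higher and 2 lower, with Mybl2, a B-Myb transcription factor gene, at 21414 ± 5338 in OE cells against 9782 ± 163 in control cells, Rbl2, an RB-related repressor gene, at 191 ± 81.6 against 862 ± 14.2, and Lin52 at 328 ± 32.4 against 776 ± 12.6. Mitosis genes had 3 of 22 lower and 0 higher: Aurkb (2020.5 ± 226 in OE cells against 5023 ± 170 in control cells), Prc1 (3350 ± 558 against 6880 ± 142) and Bub1b (6008 ± 564 against 10682 ± 646). Orc5, Ticrr, Recql4, Top2a, Rrm2b and Rbl2 also share exon bases with another gene.

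**Figure D5:**
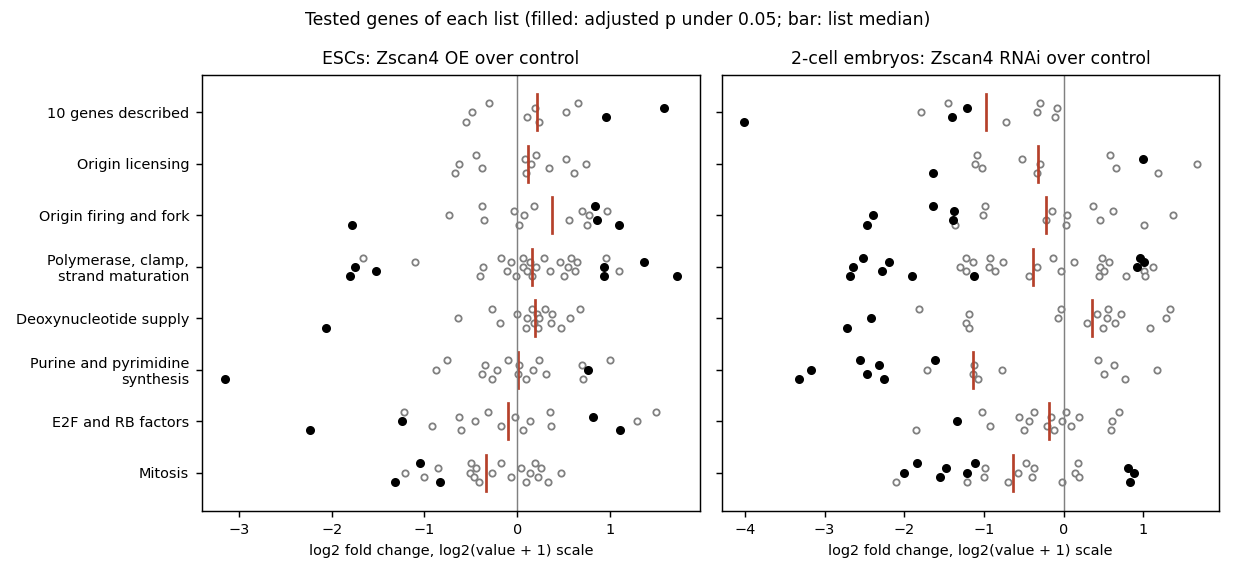
Log2 fold changes (horizontal axis, log2(value + 1) scale) of the tested genes in each list, in ESCs (Zscan4 OE over control) and 2-cell embryos (Zscan4 RNAi over control). Each point is a gene, filled where the adjusted p is under 0.05, and the bar is the list median, which is -1.13 for purine and pyrimidine synthesis in embryos and 0.01 in ESCs.

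Chromosome-wide shifts were small where the 10 genes lie: the median log2 fold change of their chromosomes was -0.06 to 0.09 in ESCs and -0.10 to 0.19 in embryos. On chromosome 11, which carries Top2a, Aurkb, Shmt1 and Nme2, the median was -0.49 over 1537 genes in ESCs and -0.31 over 1203 genes in embryos, and the part of that shift in their values was not tested. Mcm7 shares 557 of its 4426 exon bases with Cops6 and Ap4m1 on the other strand and with Mir25 and Mir93, and 23.3% of its windows of 50 bases occur in other genes, most of them in Gm5487. Cops6 averaged 31.3 ± 11.3 with RNAi and 177 ± 91.5 in control embryos, and 3887 ± 1197 in OE cells and 2651 ± 2.30 in control cells, so the Mcm7 values are uncertain. The corresponding share of windows was 5.72% for Tyms, 4.95% for Rrm2, 2.41% for Rrm1 and 1.52% for Mcm4, and under 1% for the others except Pcna.

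Set side by side, Tyms was the member that passed the test in both comparisons, higher in OE cells (log2 fold change 1.58) and lower in RNAi embryos (-4.01). In the 5 replication and nucleotide lists, 6 of the 94 genes tested in both tables passed in both (6.38%), beside 611 of all 13072 (4.67%), so the share of the lists lay near that of all genes. Fen1, Chtf18, Ticrr and Gins3 were at 1.37, 1.72, 1.09 and 0.84 in OE cells and at -1.91, -2.68, -1.39 and -2.47 in RNAi embryos. They passed in both with opposite signs, 4 of the 94 (4.26%), beside 436 of all 13072 genes (3.34%). That share also lay near the share of all genes. The Chtf18 mean with RNAi lay below the value of 3 reads. Pole4, a polymerase epsilon subunit gene, was higher in both (0.94 in OE cells and 0.95 in RNAi embryos), and Top2a was lower in both (-1.80 and -1.13). Rrm2 and Mcm6, lower in RNAi embryos, were at -0.49 and -0.55 in OE cells, and Mcm7, higher in OE cells, was at -0.73 in RNAi embryos. Whether the 2 comparisons differ was not tested, because they contrast different agents in different cells and their tables were normalised separately.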

How the data were processed

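Trimmomatic, HISAT2, featureCounts and mm10 are named for these libraries in the submitters' processing notes; their versions, the gene annotation, the strand setting and the scaling step are not named there. The authors deposited a gene table for each cell type, in a normalised signal. Every value is a whole multiple (within 0.01 of a read, 100% of values) of the library's step, so it stands for reads over a size factor. Embryo control columns carry other numbers than the labels and only name libraries.

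Each table was fitted alone with limma 3.58.1 (R 4.3.3), with a trend, on log2(value + 1); fold changes are on that scale, and a larger pseudocount draws those of low genes towards 0. A gene was tested when at least 2 ESC or 5 embryo libraries reached 1 normalised read. The p-values were adjusted by Benjamini-Hochberg over all tested genes, with a threshold of 0.05, and folds are ratios of group means. The fit was tested on simulated data. Alternatives used edgeR 4.0.16, DESeq2 1.42.0 and voom on the recovered reads, other pseudocounts, filters and scalings, and left-out libraries. Positions and transcript lengths are from GENCODE vM21 and promoters from RefSeq.

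The members and lists were chosen with earlier results of these data known. Each list names up to 3 genes past the threshold with the smallest p, or else the 1 with the smallest p; Ticrr in embryos, Gins3 in ESCs, Pole4, and Top2a in embryos were named after their values were seen. Cdc45 and Rpa1 in ESCs were not analysed here. Floors of 3 reads cover counting error only, since reads carry no molecular identifiers.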

Additional observations from a re-analysis of the deposited data

Results flagged for a closer look

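Of 20 groups of embryo libraries checked, 1 held a library far from the others, and chance marks about 1 in 20. Mcm3 stood at 75.7 normalised reads in RNAi 5, and the nearest RNAi library had 22.0. The gap was 0.71 of the whole range of the group, above the critical value of 0.625. RNAi 5 also had the highest Mcm6 value of the RNAi libraries, at 143.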

How the results depend on the processing

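The count of genes called over the whole ESC table was 4843 and ranged between 0 and 10855 with a replicate left out, and the count among the 10 genes was 2 and ranged between 0 and 8. In embryos the counts were 2983 (1730 to 3578 with a replicate left out, and 1730, 1934 and 1755 without control 2, 3 and 4) and 3 (1 to 5). By edgeR 1 of the 10, Tyms, was called in embryos. The other settings that kept every library left these counts within 1.5 times. The split of higher and lower calls was 2453 and 2390 in ESCs, against 2050 and 1231 in voom, and 1007 and 1976 in embryos, against 1396 and 1609 after quantile normalisation. In embryos the median log2 fold change of all genes was -0.03, and 0.14 after quantile normalisation, 0.093 in edgeR and 0.084 in voom. Of 190 recomputed embryo values 13 changed sign. Mcm2 was at 0.14 in edgeR, 0.032 in DESeq2, 0.049 in voom and 0.10 after quantile normalisation, and between -0.30 and 0.19 with a replicate left out. Mcm5 was at 0.0056 in voom, and between -0.68 and 0.014 with a replicate left out. Pcna was at 0.060 in edgeR and 0.068 after quantile normalisation, and between -0.28 and 0.058 with a replicate left out. In ESCs 2 of 130 changed sign, both of Mcm4, at -0.0065 after quantile normalisation and between -0.16 and 0.37 with a replicate left out. The cause was not tested.

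The ESC labels number OE and control libraries 1 and 2. The correlation of deviations between same-numbered libraries was -0.03 over 15888 genes, so the numbers were not taken as pairs. A fit with the replicate block called 6024 genes and 2 of the 10. Embryo libraries were not analysed as pairs, because their titles name no pairs of RNAi and control libraries. The embryo control columns are numbered 1 to 5 and the labels 3 to 7, so that no control column can be matched to a label. With 695524 to 1432566 reads per embryo library, Tyms rests on 39 reads in the RNAi group, Rrm1 on 77, Mcm3 on 145, Mcm7 on 194 and Mcm5 on 233, which limits the precision of their values.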
